A study of Rattus norvegicus with 6 samples.

Results

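The miR-10 and miR-196 microRNAs are encoded inside the Hox gene clusters, and their reads were described here in AR42J cells, an established rat line of the exocrine pancreas. Members were all reads aligned to the precursors rno-mir-10a, rno-mir-10b, rno-mir-196a, rno-mir-196b and rno-mir-196c, which are 5 of the 336 miRNA precursors in the data after copies of a precursor were merged. Sorted by precursor and arm, or by the set of precursors a read sequence fitted equally, these reads formed 14 of 657 miRNA features, and all 14 were among the 340 features that passed the filter on low counts. The study compared 3 libraries from untreated cells with 3 from cells given 200 µM sodium taurocholate, a bile salt, for 30 min. All libraries came from this 1 line, grown in F12K medium with fetal bovine serum and antibiotics, and the labels do not say whether replicates were separate cultures, so a p-value here reflects the variation among these libraries alone, and that may be technical. The members were chosen by their levels and differences in this contrast, so their values with and without taurocholate are a description. Tests of this contrast were fitted over all miRNA features and are given as counts of calls, and nothing is read from calls among the members.

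A miRNA precursor folds into a hairpin that Drosha and Dicer cut into a duplex. The strand from the 5′ side is called 5p and the one from the 3′ side 3p, and the strand that enters Argonaute pairs with target mRNAs mainly through its seed, bases 2 to 8. A start that moves by 1 base therefore changes the seed. miR-10 and miR-196 lie among the Hox genes that set position along the body axis and are known to target Hox mRNAs. The related miR-99 and miR-100 differ from miR-10 in the seed.

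In the RefSeq tables of assembly GRCr8, in which all 5 precursors were found, each precursor lies in a Hox cluster. The mir-10a hairpin is at chr10:81779709-81779818 on the plus strand between Hoxb5 and Hoxb4, and mir-196c is in the same cluster at chr10:81727551-81727630, plus strand, between Hoxb13 and Hoxb9. The mir-10b hairpin is at chr3:80035859-80035967, plus strand, within the span of Hoxd4. The mir-196a hairpin is at chr7:135988876-135988985, plus strand, between Hoxc10 and Hoxc9. The mir-196b hairpin is at chr4:82661101-82661185, minus strand, between Hoxa9 and Hoxa10. These positions come from RefSeq, and the build behind the deposited alignments was not given.

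The 5p sequences show how closely the members resemble each other. Below are the most frequent reads of 22 nt, as sequenced (T for U), with the seed in capitals.
miR-10a-5p: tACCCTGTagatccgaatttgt
miR-10b-5p: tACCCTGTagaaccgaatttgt
miR-196a-5p: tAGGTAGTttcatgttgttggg
miR-196b-5p: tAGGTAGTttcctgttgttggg
miR-196c-5p: tAGGTAGTttcgtgttgttggg
Within each family these reads share the seed and differ at 1 base. Counted from 1 at the first base of these reads, miR-10b carries T12A relative to miR-10a, miR-196b carries A12C relative to miR-196a, and miR-196c carries A12G relative to miR-196a and C12G relative to miR-196b. Alignments were allowed 1 mismatch, so a single changed base at position 12 can move a read from 1 member to another or into a group shared by several.

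Reads aligned to miRNA precursors numbered 3070227, 3987307 and 2791878 in untreated replicates 1 to 3, and 3343552, 3780777 and 3637092 in taurocholate replicates 1 to 3. Within each group the libraries differed by far more than counting noise (chi-square per degree of freedom 49.3 to 513). Taurocholate replicate 1 stood apart. Of its miRNA reads, 22.1% ended in a mismatched G, against 5.31% in untreated replicate 1 and 1.20% to 1.89% in the others, and 50.9% were free of mismatches, against 62.3% to 65.7%. Of the miRNAs listed as markers of pancreatic acinar cells, miR-148a was at 284171 to 421894 CPM (counts scaled to the library's total of miRNA reads). miR-216a, miR-216b and miR-217 had 3, 5 and 5 reads over all libraries. miR-375, miR-141 and miR-200c lay at 2.51 to 77.5, 1.07 to 26.7 and 4.26 to 87.9 CPM. Summed, the 7 listed miRNAs, 4 of them at 10 CPM or more, lay at 352152 to 422010 CPM untreated and 284336 to 406618 with taurocholate. Nearly all of this sum was miR-148a, so it does not speak for the others on the list. The 5 blood and immune markers (3 at 10 CPM or more) lay at 2828 to 4782 and 2774 to 4625 CPM, and all 4 stromal markers were detected, at 14899 to 16976 and 11853 to 16769. Of 4 muscle markers 2 reached 10 CPM, with sums of 23.6 to 87.6 and 22.7 to 43.4, and the liver marker miR-122 lay at 18.6 to 26.7 and 6.88 to 23.9. The part of other cell types in the results was not tested.

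The 5p arms of miR-10 were the main products. Members took 3.29%, 3.62% and 3.46% of miRNA reads in untreated and 4.04%, 3.29% and 3.69% in taurocholate libraries. By mean level over the 6 libraries, miR-10b-5p ranked 6 and miR-10a-5p 12 among all miRNA features, miR-196a-5p 49 and miR-196b-5p 57.

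miR-10b-5p, encoded at Hoxd4, was at 20284, 22800 and 20809 CPM untreated and 24154, 20337 and 22171 with taurocholate (21298 ± 1328 and 22221 ± 1909, mean and SD, n = 3 each). The groups overlapped, and the fitted log2 fold change, taurocholate minus untreated, was 0.00 with a standard error (SE) of 0.11. miR-10a-5p, from the Hoxb cluster, was at 10314, 10228 and 10441 CPM and at 11427, 9798 and 10665 (10328 ± 107 and 10630 ± 815, SD, n = 3 each). Its fold change on the log2 scale was -0.02 (SE 0.12) and 0.04 with DESeq2's size factors, and its groups overlapped as well. For miR-10a-5p the untreated libraries were close together and the taurocholate libraries lay on either side of them, and for miR-10b-5p only taurocholate replicate 1 lay outside the untreated range, above it.

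miR-196a-5p, from the Hoxc cluster, was at 1058, 1576 and 1639 CPM in untreated and 2409, 1286 and 2018 in taurocholate libraries (1425 ± 319 and 1904 ± 570.3, SD, n = 3 each). Untreated replicate 1 was the lowest and taurocholate replicate 1 the highest, and the groups overlapped through taurocholate replicate 2; the log2 fold change was 0.34 (SE 0.16), and 0.17 without both of those libraries. miR-196b-5p, from the Hoxa cluster, was at 892, 1213 and 1227 CPM and at 1955, 1226 and 1639 (1111 ± 189 and 1607 ± 365, SD, n = 3 each). In CPM its groups overlapped, with untreated replicate 3 at 1227 and taurocholate replicate 2 at 1226. After TMM scaling every taurocholate library was above every untreated one. The centred log2 levels were 0.36, 0.16 and 0.18 with taurocholate and -0.37, -0.14 and -0.17 untreated. How many of all features lay apart after TMM scaling was not counted. The log2 fold change of miR-196b-5p was 0.46, with 2 SE spanning 0.23 to 0.69. With reads free of mismatches it was 0.68, and without both replicates 1 it was 0.38. In these bulk samples, more cells that make a miRNA and more of it per cell cannot be told apart.

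The 3p arms were minor products. miR-10b-3p was at 108, 117 and 131 CPM untreated and 138, 74.9 and 108 with taurocholate (log2 fold change -0.24, SE 0.15). Next came miR-10a-3p, at 87.6, 87.5 and 100.3 and at 105, 56.1 and 92.9 CPM (-0.21, SE 0.16). In both, taurocholate replicate 1 was the highest library and replicate 2 the lowest, and without replicate 2 the fold changes were -0.11 and -0.06. miR-196a-3p was at 18.2, 23.8 and 23.6 CPM and at 38.0, 19.0 and 19.8 (0.14, SE 0.24), again with taurocholate replicate 1 on top, and without that library the fold change was -0.11. miR-196b-3p was rare, with 8, 14 and 10 reads in the untreated libraries and 16, 19 and 17 after taurocholate. Its CPM, 2.61, 3.51 and 3.58 against 4.79, 5.03 and 4.67, did not overlap, with a log2 fold change of 0.53 (SE 0.30).

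No member feature was called at an adjusted p under 0.05 by edgeR's quasi-likelihood test, nor was any of the 340 features tested (0%). The smallest adjusted p over all features was 0.131, and 56 features, 19 of them higher, had an unadjusted p under 0.05. DESeq2's Wald test called 12 of 340 (3.53%) and gave 60 features an unadjusted p under 0.05. miR-196b-5p was the only member feature among the 12, and nothing is read from that, as members were chosen by this contrast. Of the 14 member features, 7 had a log2 fold change above 0 and the median was -0.01, while over all 340 features 150 were above 0 and the median was -0.05. CPM did not overlap between the groups in 3 member features, 1 higher (miR-196b-3p) and 2 lower, where 13.8% of all features did not overlap (6.18% higher and 7.65% lower).

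**Figure D1:**
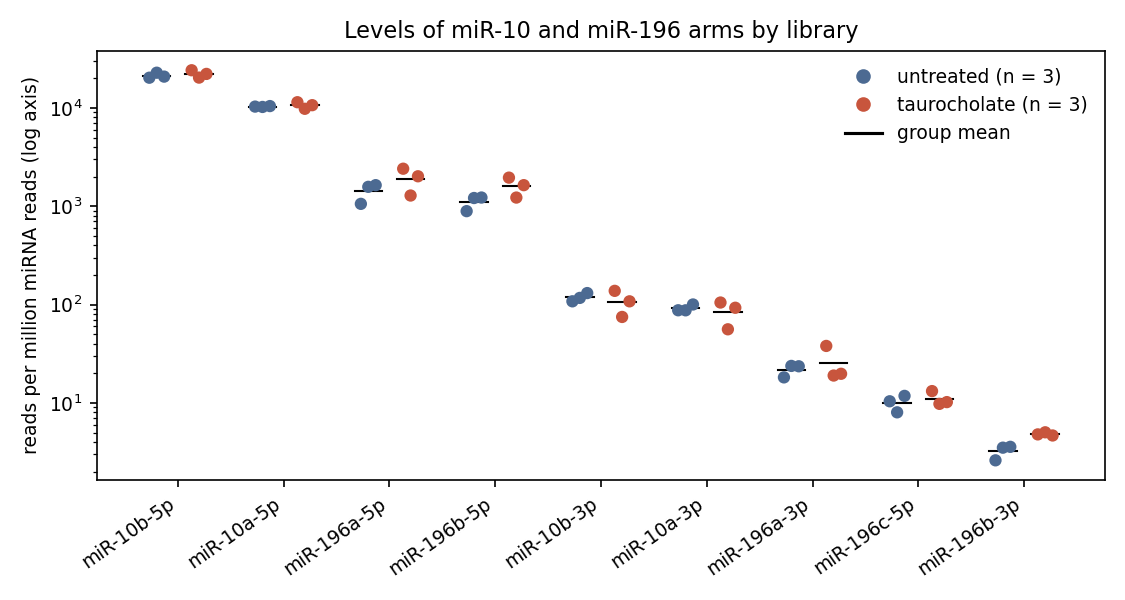
Level of the 9 arms that reads could be assigned to (x axis) in each library, in CPM on a log axis (blue, untreated; red, taurocholate; black lines, group means; n = 3 each). The 5p arms of miR-10b and miR-10a lie near 21759 and 10479 CPM on average, above both miR-196 5p arms and all 3p arms.

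**Figure D2:**
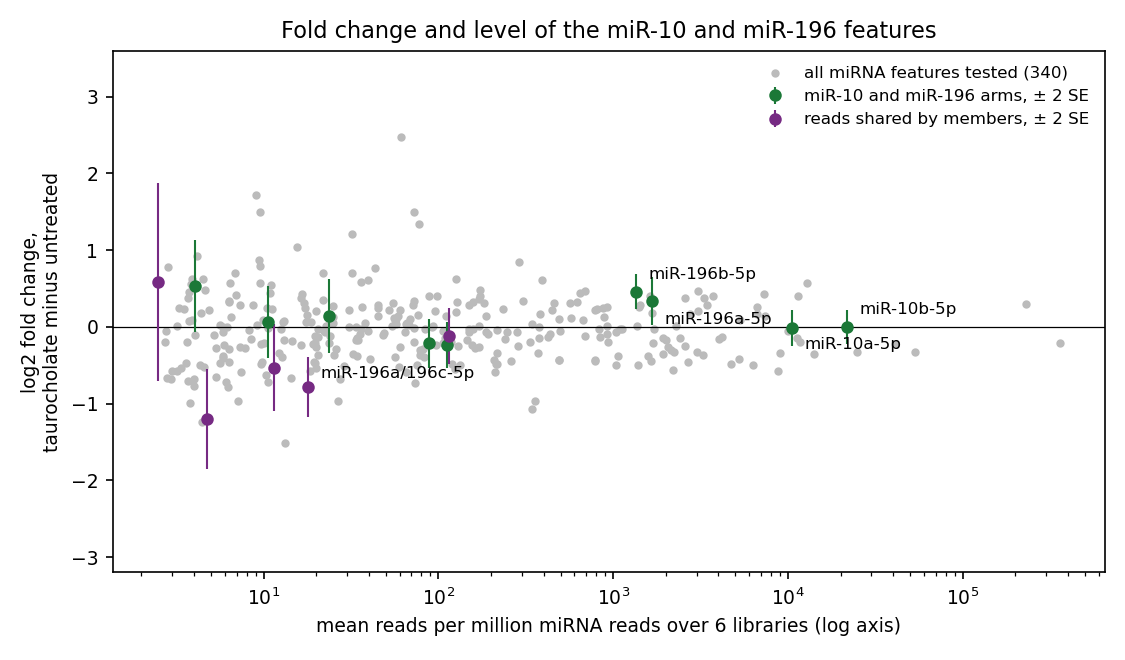
Fitted log2 fold change, taurocholate minus untreated (y axis), against mean CPM over 6 libraries (log x axis) for the 340 miRNA features tested in grey, with member arms in green and reads shared by members in purple; bars are 2 SE. miR-10a-5p and miR-10b-5p lie at -0.02 and 0.00, miR-196a-5p and miR-196b-5p at 0.34 and 0.46, and the purple point of miR-196a with miR-196c at -0.78.

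The order of the 9 arms by level was the same in all 6 libraries. miR-10b-5p exceeded miR-10a-5p by 1.97 to 2.23 times within a library (geometric mean 2.07), and their ranges did not meet. miR-10a-5p exceeded miR-196a-5p by 4.74 to 9.75 times. miR-196a-5p exceeded miR-196b-5p in 6 of 6 libraries, by 1.05 to 1.34 times, while the ranges of their levels over libraries overlapped. miR-196b-5p exceeded miR-10b-3p by 8.28 to 16.4 times, and miR-10b-3p and miR-10a-3p, at a mean ratio of 1.28 (1.16 to 1.34 within a library), also overlapped in range.

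Both groups that were lower with taurocholate consisted of reads shared between miR-196 members. Their main sequences are shown because they identify what was counted, with the last base in capitals.
miR-196a with miR-196c: taggtagtttcatgttgttgggC
miR-196b with miR-196c: taggtagtttcctgttgttgggC
miR-196a with miR-196b: taggtagtttcctgttgttgggatT
The first made up 367 of the 369 reads (99.5%) of its group. It fits miR-196a with 1 mismatch at its last base, A23C, or miR-196c with 1 mismatch at position 12, G12A. The second made up all 234 reads of its group and likewise fits miR-196b with A23C or miR-196c with G12C. Of the 96 reads of the third group, 85 (88.5%) were the sequence shown, which fits miR-196b with C25T at its last base or miR-196a with A12C.

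The group of miR-196a with miR-196c was at 17.6, 25.8 and 23.6 CPM untreated and 12.9, 10.8 and 17.0 with taurocholate (log2 fold change -0.78, SE 0.20). All 3 taurocholate libraries were below the untreated ones, although miR-196a-5p itself had a fold change above 0. Those shared by miR-196a and miR-196b were at 5.21, 6.52 and 7.88 and at 3.29, 1.59 and 4.12 CPM (-1.20, SE 0.33), also apart, on 96 reads in all. For miR-196b and miR-196c the shared reads were at 9.12, 14.5 and 16.5 and at 7.48, 9.26 and 11.5 CPM (-0.53, SE 0.28), and overlapped. The share of reads ending in a mismatched C was lower with taurocholate, with no overlap, in 81.9% of the 83 miRNA features that had at least 1000 reads in each library, so the lower level of the group of miR-196a with miR-196c, whose reads all ended in C, lay beside a difference in last bases across miRNAs; its part in that level was not tested. The group of miR-196a with miR-196b, of which 7.29% of reads ended in C, was led by a read ending in T, and a mismatched last T was lower without overlap in 39.8% of the 83 features. Of the other shared groups, the 50 reads fitting all 3 miR-196 members differed by 0.59 on the log2 scale (SE 0.65), or by 1.46 without untreated replicate 3. The 2389 reads fitting both miR-10a and miR-10b, led by a read with G at position 12, were at 111, 127 and 117 and at 103, 112 and 123 CPM (-0.12, SE 0.18).

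Few reads belonged to miR-196c, and no 3p read did. Its 5p arm had 32, 32 and 33 reads in untreated libraries and 44, 37 and 37 in the others, or 10.4, 8.03 and 11.8 and 13.2, 9.79 and 10.2 CPM, with overlapping groups. The 215 reads were 0.626% of the number of miR-196a-5p reads (95% exact Clopper-Pearson interval 0.545% to 0.715%), and 115 were free of mismatches. Since miR-196c differs from miR-196a by A12G, the same change was counted elsewhere in miR-196a-5p reads, where it was found in 0.152% of reads at position 2 (0.113% to 0.199%) and 0.178% at position 6 (0.136% to 0.229%). In miR-10b-5p reads A-to-G changes ranged over 5 positions from 0.191% to 0.345%. Since 1 mismatch was allowed, reads counted for these changes hold no other mismatch, and the like share of miR-196c is that of its error-free reads, 0.335% (0.276% to 0.402%). It lay above both miR-196a-5p positions and inside the range of the miR-10b-5p positions. The templates of miR-196a and miR-196c part again at position 23, with A in miR-196a and C in miR-196c. Of all reads with G at position 12 that reached position 23, 8 had A there, 3 had C, 17 had T and 2 had G, so these data do not show how many of the 215 reads came from the miR-196c precursor. The 3p count of 0 of 215 allows a share of up to 1.40%. Such intervals and limits cover counting error only.

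The 5′ starts set miR-10 apart from miR-196. miR-196a-5p and miR-196b-5p began at 1 base in 99.8% and 100.0% of reads, and the median over the 83 abundant features was 99.2%. miR-10a-5p and miR-10b-5p began at their most frequent base in 68.8% and 77.9%, ranks 7 and 10 from the lowest of the 83. Nearly all their other reads began 1 nt later, which replaces the seed ACCCTGT by CCCTGTA. The leading reads of this kind, with the seed in capitals, were as follows.
miR-10a-5p, 1 nt later: aCCCTGTAgatccgaatttgtg
miR-10b-5p, 1 nt later: aCCCTGTAgaaccgaatttgtg
In miR-10a-5p this 22-nt read was the second most frequent sequence, with 20656 reads over the 6 libraries against 70653 for the leading read. RefSeq places the start of mature miR-10b-5p elsewhere.
RefSeq miR-10b-5p (GRCr8): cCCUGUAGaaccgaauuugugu
RefSeq miR-10a-5p (GRCr8): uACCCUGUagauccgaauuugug
The miR-10a entry starts where most miR-10a reads did. The miR-10b entry starts later than both frequent starts, and at that base began only 12, 8 and 7 miR-10b-5p reads untreated and 14, 13 and 10 with taurocholate, of 58095 to 90910 reads per library. Its seed, CCUGUAG, was therefore carried by almost none of the reads.

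Within a library the 2 miR-10 paralogs differed in their ends. The share at the main start was lower in miR-10a-5p than in miR-10b-5p, with a difference of -9.10 points (SD 1.08, lower in 6 of 6 libraries; two-sided exact sign-flip permutation p 0.0312, adjusted 0.0398 over 14 comparisons of paralogs or read classes). With 6 libraries 0.0312 is the smallest p this test can give. The share at the main 3′ end was higher in miR-10a-5p by 9.95 points, 59.0% against 49.1%, and its mean length was shorter, 22.1 against 22.3 nt, a difference of -0.194 nt, both in 6 of 6 libraries with the same exact p and adjusted p. Reads that began 1 nt later also ended later than those at the main start, by 0.517 nt in miR-10a-5p and 0.804 nt in miR-10b-5p on average (6 of 6 libraries each, same exact p). A mismatched last base was found in 25.7% of miR-10a-5p and 27.1% of miR-10b-5p reads (exact permutation p 0.0625, adjusted 0.0729), a difference that did not pass. A mismatched last A, the form that an added A takes, was in 12.2% and 14.0%, a difference of -1.75 points with miR-10a-5p lower in 6 of 6 libraries (exact permutation p 0.0312, adjusted 0.0398). With each distinct sequence counted 1 time, the differences changed sign to 3.10 points in mismatched last bases and 1.23 in mismatched last A. Both then passed (adjusted exact permutation p 0.0398), so the direction of these differences depended on the way of counting. The difference in length was then 0.00264 nt (adjusted exact permutation p 0.938).

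Start positions of miR-10 differed between the groups. The share of miR-10a-5p reads at the main start was 71.0%, 69.8% and 71.7% untreated and 65.2%, 67.2% and 67.8% with taurocholate, a difference of -4.13 points (70.8% ± 0.952 and 66.7% ± 1.34, SD, n = 3 each). Reads beginning 1 nt later took 28.1%, 29.2% and 27.4% untreated and 33.9%, 31.9% and 31.4% with taurocholate. For miR-10b-5p the main start took 79.2%, 78.7% and 79.3% and then 75.7%, 77.1% and 77.4%, a difference of -2.37 points, and the later start 20.7%, 21.3% and 20.7% and then 24.3%, 22.9% and 22.6%. Neither miRNA's groups overlapped; among the 83 abundant features 8.43% had a lower and 6.02% a higher main-start share without overlap. Taurocholate replicate 1, the library with many reads ending in a mismatched G, was the farthest from the untreated ones. Without it and untreated replicate 1, the differences were -3.27 and -1.78 points, and with reads free of mismatches they were -4.93 and -2.70. In miR-196a-5p and miR-196b-5p the main-start shares of the groups overlapped and differed by -0.0341 and -0.0258 points.

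The 3′ ends of miR-10 also differed between the groups. miR-10a-5p reads ended at the main 3′ end in 67.6%, 62.9% and 64.6% of cases untreated and in 48.5%, 55.7% and 54.8% with taurocholate, a difference of -12.0 points. Those ending 1 nt further took 19.5%, 23.6% and 22.5% and then 38.1%, 30.0% and 31.3%, higher by 11.2 points. In miR-10b-5p the main end took 57.8%, 53.8% and 54.2% and then 39.2%, 44.3% and 45.0%, a difference of -12.5 points, while the longer end took 21.9%, 26.2% and 25.3% and then 40.3%, 33.4% and 34.6%. The groups were apart in each case. Mean length differed little, by 0.0659 nt in miR-10a-5p and 0.0777 nt in miR-10b-5p, longer without overlap in both (13.3% of the abundant features were longer and 34.9% shorter without overlap). Such a lower main-end share without overlap was found in 36.1% of the 83 abundant features and a higher one in 19.3%, so 3′ ends differed in many miRNAs. The base after the main end is a templated G in both miR-10 members, so a G added to the main form reads as the longer end, and taurocholate replicate 1 again had the most extreme values. Without both replicates 1 the main end was still lower, with differences of -8.47 points in miR-10a-5p and -9.40 in miR-10b-5p. The part of added bases in these shifts was not tested.

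**Figure D3:**
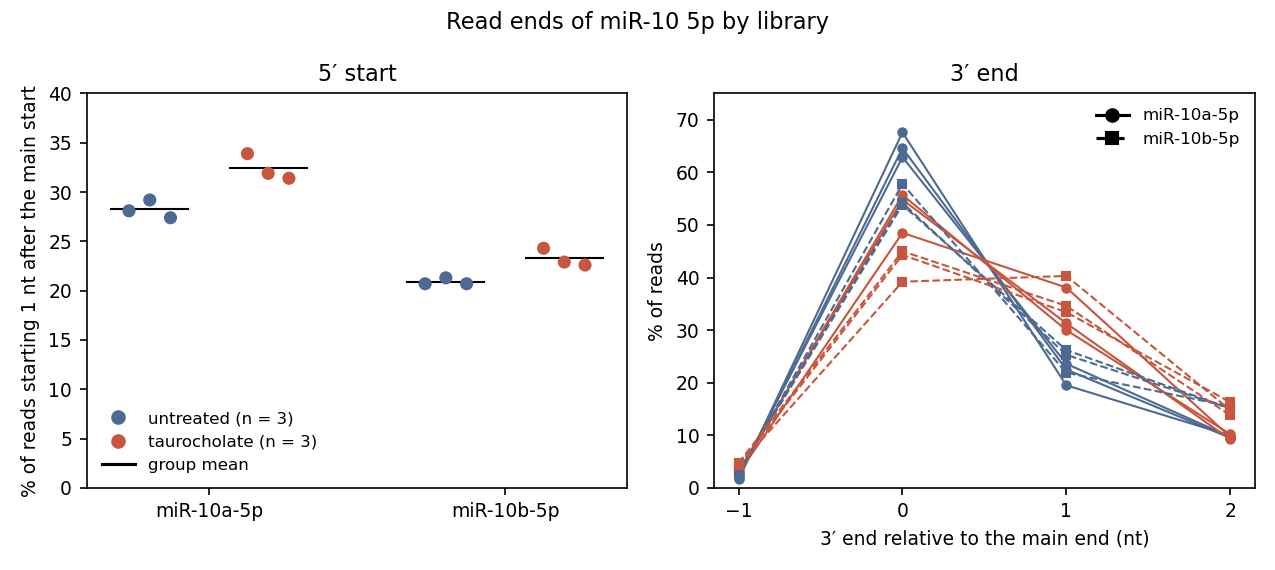
Left, percent of miR-10a-5p and miR-10b-5p reads that start 1 nt after the main start in each library (blue, untreated; red, taurocholate; lines, group means; n = 3 each). Right, percent of reads by 3′ end relative to the main end in nt, 1 line per library (circles, miR-10a-5p; squares, miR-10b-5p); the main end has means of 65.0% and 55.3% untreated and 53.0% and 42.8% with taurocholate.

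In both miR-196 arms the main 3′ end took more reads with taurocholate. The end 1 nt past each arm's own main end differed in direction between them, but at matching bases the differences had the same direction. The main end of miR-196b-5p took 49.5%, 49.9% and 47.6% of reads untreated and 55.4%, 56.8% and 51.8% with taurocholate, higher by 5.68 points, and reads 1 nt longer took 14.6%, 15.2% and 15.9% and then 9.49%, 9.18% and 11.1%. In miR-196a-5p the main end, which is 1 nt shorter than in miR-196b-5p, took 39.2%, 38.0% and 39.6% and then 40.1%, 41.2% and 40.4%, higher by 1.68 points. The reads of miR-196a-5p that were 1 nt longer took 30.5%, 33.6% and 33.0% and then 38.2%, 35.7% and 37.1%, higher by 4.64 points. Their end is the matching base to the main end of miR-196b-5p, which was also higher. The end 1 nt before this base was higher by 1.68 points in miR-196a-5p and 1.99 in miR-196b-5p. The end 1 nt after it differed by -3.39 and -5.30 points. None of these groups overlapped. With reads free of mismatches they did for the ends before and after the matching base in miR-196a-5p, the former being its main end. In miR-196b-5p they did for the end before it. A G added to a miR-196 read that ended within its run of templated G reads as a longer end. The part of added bases in these differences was not tested. Between these paralogs, miR-196a-5p reads were shorter than miR-196b-5p reads (21.6 against 21.8 nt, a difference of -0.185 nt in 6 of 6 libraries, exact permutation p 0.0312, adjusted 0.0398). The share at each one's own main end was lower in miR-196a-5p (39.7% against 51.8%, a difference of -12.1 points, same exact p), as was the main-start share (-0.110 points). Shares of a mismatched last base (28.9% and 29.2%) and last A (16.4% and 16.7%) were close, with differences of -0.305 and -0.267 points (SD 1.71 and 0.591) and adjusted exact p of 0.625 and 0.337.

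Mismatched last bases are bases that the precursor does not encode. Their source, for example added nucleotides or sequencing error, was not tested. In miR-196b-5p, reads ending in a mismatched T, the form that an added U takes, were 15.5%, 11.9% and 12.9% untreated and 4.19%, 6.50% and 7.47% with taurocholate. In miR-196a-5p they were 13.1%, 11.5% and 11.8% and then 4.91%, 6.92% and 8.69%. Both miR-10 5p arms had few such reads, at most 1.33% in a library. The mismatched last T was lower without overlap in all 4 of these 5p arms, against 39.8% of the 83 abundant features. Reads ending in a mismatched C were 9.25%, 10.9% and 10.1% of miR-10a-5p untreated and 4.26%, 7.44% and 7.47% with taurocholate, and 8.99%, 10.3% and 9.74% and then 3.96%, 6.56% and 7.03% of miR-10b-5p. In miR-196a-5p they were 2.01%, 2.30% and 1.99% and then 0.784%, 1.15% and 1.45%, and in miR-196b-5p 2.23%, 2.13% and 1.61% and then 0.842%, 1.27% and 1.41%. All 4 were lower without overlap, beside 81.9% of the abundant features. The miR-196 shares leave out reads ending in C that also fit miR-196c and were counted in the shared groups. These were 369 reads for miR-196a and 234 for miR-196b, so the miR-196 and miR-10 shares are not directly comparable. A mismatched last G took 17.8% of miR-10a-5p and 16.7% of miR-10b-5p reads in taurocholate replicate 1, and 4.95% and 4.09% of miR-196a-5p and miR-196b-5p. The leading miR-196 reads end in a run of templated G. A G added to a shorter miR-196 form, or to the main miR-10 form, can match the precursor and is then not counted here. The G shares of miR-10 and miR-196 are therefore not directly comparable. The mismatched last A overlapped between groups in all 4, where 30.1% of abundant features were higher without overlap. Over all 4 bases, a mismatched last base was less frequent with taurocholate without overlap in both miR-196 arms and more frequent in miR-10b-5p, beside 15.7% and 7.23% of the abundant features.

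**Figure D4:**
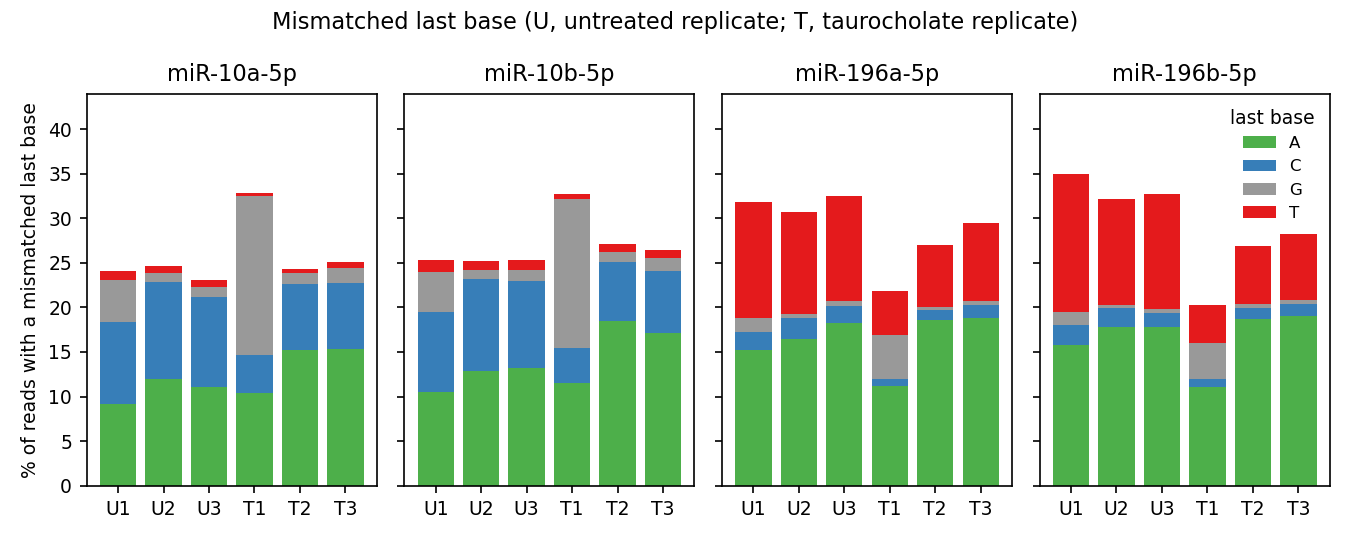
Percent of reads whose last base does not match the precursor (y axis), stacked by that base, in each library (U1 to U3, untreated; T1 to T3, taurocholate) for the 4 abundant 5p arms. Mismatched T is the main difference between groups in miR-196, C is lower with taurocholate in every panel, and T1 carries a large share of G in miR-10.

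The balance of the arms differed between members more than between groups. The 3p arm took 0.828% of the arm reads of mir-10a, 0.509% of mir-10b, 1.40% of mir-196a and 0.298% of mir-196b, or 119.8, 196, 70.4 and 335 reads of 5p per read of 3p. Within a library the log2 ratio of 5p to 3p was lower in mir-10a than in mir-10b (difference -0.700, SD 0.0807) and lower in mir-196a than in mir-196b (difference -2.22, SD 0.359), each in 6 of 6 libraries (exact permutation p 0.0312, adjusted 0.0398). The ratio of mir-10a was 6.88, 6.87 and 6.70 untreated and 6.76, 7.45 and 6.84 with taurocholate, a difference of 0.20, and of -0.01 without taurocholate replicate 2. Differences in mir-10b, mir-196a and mir-196b were 0.25, 0.24 and -0.04. Each rested on 1 library, being 0.08 in mir-10b and 0.17 in mir-196b without taurocholate replicate 2 and 0.03 in mir-196a without replicate 3. The groups overlapped in all 4, where 22.0% of 100 precursors with enough reads on both arms did not overlap. In mir-10a and mir-10b the highest ratio was in taurocholate replicate 2, the library with the lowest 3p levels.

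**Figure D5:**
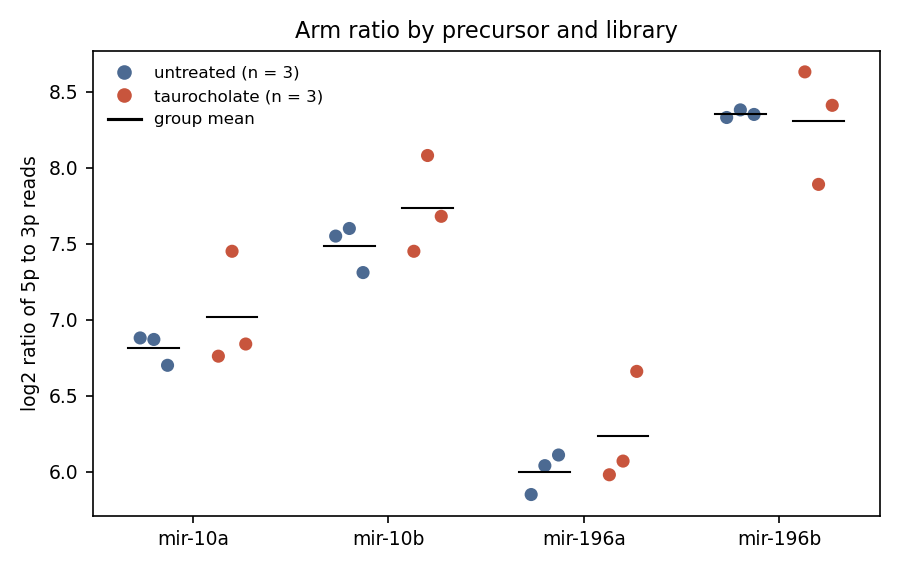
Log2 ratio of 5p to 3p reads (y axis) for the 4 precursors with reads on both arms, in each library (blue, untreated; red, taurocholate; lines, group means; n = 3 each). mir-196b has the highest group means, 8.36 and 8.31, and mir-196a the lowest; in taurocholate replicate 2 mir-10b (8.08) lies above mir-196b (7.89).

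The 3p arms also varied in their starts. miR-10b-3p began at 3 neighbouring bases, with 43.4% of reads at the most frequent, 42.0% 1 nt earlier and 13.9% 1 nt later, whereas miR-10a-3p began at 1 base in 85.5%. The 3 leading miR-10b-3p reads, with 654, 566 and 184 reads, show the 3 seeds in capitals.
miR-10b-3p: aCAGATTCgattctaggggaat
miR-10b-3p, 1 nt later: cAGATTCGattctaggggaat
miR-10b-3p, 2 nt later: aGATTCGAttctaggggaat
RefSeq lists the first of these starts as mature miR-10b-3p. For mir-196a the RefSeq table used holds only the 5p sequence. Its leading 3p read, with 161 of 488 3p reads, was as follows.
miR-196a-3p: tCGGCAACaagaaactgcctgagt

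A few reads lay outside both arms. On mir-10a, 170 reads lay before the 5p arm and 64 in the loop, and 120 of the former ended at the base just before the main 5p start. The most frequent of them had 50 reads.
mir-10a, before the 5p arm: acctgtctgtcttctgtata
The reads before the 5p arm numbered 70 on mir-196a and 27 on mir-196b, of which 67 and 27 ended just before it. On mir-10b, with 451869 reads the most covered precursor, there were 0 such reads, which allows a share of up to 6.64e-04%.

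Other miRNAs of the family were compared by value. miR-100-5p was at 8835, 10349 and 9701 CPM untreated and 14440, 12187 and 12952 with taurocholate, with a log2 fold change of 0.40 (SE 0.11). miR-99b-5p was at 5274, 6614 and 6174 and at 10069, 7387 and 8047 CPM (0.44, SE 0.11). The groups were apart in both, and overlapped in miR-99a-5p (-0.06, SE 0.16) and miR-99b-3p (0.16, SE 0.16). Of these 4 features 3 had a fold change above 0, with a median of 0.28, and edgeR called none. Among miR-125a and miR-125b, which lie beside members of the miR-99 and miR-100 group, 2 of 4 arms were above 0 (median 0.12). miR-615-3p, from a hairpin in the Hoxc cluster, was at 1111, 1242 and 1225 CPM untreated and 664, 1054 and 1083 with taurocholate (-0.37, SE 0.27), lower without overlap.

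Library profiles of the members were set beside those of the 129 other features with a mean of at least 100 CPM, by the root mean square (RMS) difference of centred log2 levels over the same 6 libraries, as a description. miR-10a-5p was nearest to miR-221-5p and miR-10b-5p (0.06 each) and miR-106b-3p (0.07), where the median feature was at 0.25. miR-10b-5p was nearest to miR-106b-3p (0.05), miR-10a-5p (0.06) and miR-221-5p (0.08). miR-196a-5p was nearest to miR-17-5p (0.06), miR-503-5p (0.08) and miR-20a-5p (0.09), and miR-196b-5p to miR-872-5p (0.02), miR-322-3p (0.09) and miR-25-3p (0.11), against a median of 0.33 for each. For miR-10b-3p the nearest were miR-142-5p (0.07), miR-92a-3p (0.09) and miR-148b-3p (0.09). The 2 miR-10 paralogs were thus among each other's 3 nearest features. The 2 miR-196 paralogs were not, but a list cut at 3 does not show that their profiles were unlike. Centred levels of miR-196a-5p were -0.41, -0.05 and -0.04 untreated and 0.37, -0.06 and 0.19 with taurocholate. Those of miR-196b-5p were -0.37, -0.14 and -0.17 and then 0.36, 0.16 and 0.18, with the widest gap in taurocholate replicate 2.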

How the data were processed

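Small RNA of 6 AR42J libraries, 3 per group, was analysed; groups and replicate numbers came from the labels. Per the labels' protocols, RNA was deacylated, freed of cyclic phosphates, phosphorylated at 5′ ends and demethylated before libraries were cut from a gel, so fragments without a native 5′ phosphate can enter. FastQC, cutadapt and Novoalign 2.07.11 were used, per the submitters' processing notes; their settings and the build were not given in the sources used here. Values deposited by the authors are read counts, 1 line per alignment of a distinct read sequence to a precursor, per the file headers. Reads were 16 to 28 nt long, with at most 1 mismatch, inserted base or deleted base. Files of tRNA alignments were not used here.

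Each read sequence was counted 1 time per library; arms were split at the hairpin's middle, and sequences fitting several members formed groups of their own. RefSeq gave the hairpin length of 374 of 383 precursors; for 9 the reads' extent was used. Positions in the files exceed those of RefSeq hairpins by 5 nt. CPM use each library's miRNA reads, without TMM factors; fold changes come from edgeR 4.0.16 in R 4.3.3 (TMM, filterByExpr, quasi-likelihood test, Benjamini-Hochberg). Arm ratios had 0.5 added to each arm. On simulated counts for 340 features, edgeR found 47.3% of the 2-fold and 88.1% of the 4-fold changes put in. Deviations of same-numbered libraries correlated at r = 0.29, 0.63 and 0.18, weakly in replicates 1 and 3. The numbers were taken as pairs for the replicate block only. Untreated replicate 1 correlated more with taurocholate replicate 3 (r = 0.41), so pairing by number is uncertain. DESeq2 1.42.0, other scalings, error-free reads, a length window and left-out libraries were alternatives.

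The members, lists and tests were chosen with earlier results of these data known. Features of at least 60 reads were described singly, with their 3 leading sequences where informative. The planned comparison of read ends for miR-196 used the group of miR-196a with miR-196c; as these are almost 1 sequence with fixed ends, miR-196a-5p was compared with miR-196b-5p instead, a choice made after seeing the data.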

Additional observations from a re-analysis of the deposited data

How the results depend on the processing

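edgeR called 0 features under each scaling, filter and read choice tried, and DESeq2's Wald test called 12. With the replicate block, pairing same-numbered libraries, edgeR called 0 (smallest adjusted p 0.246), and no call changed. The log2 fold change of miR-196b-5p was 0.68 with error-free reads. Without untreated replicate 1 and taurocholate replicate 1, an alternative added after seeing the data, that of miR-10a-5p was 0.15 and its difference in mean length 0.0361 nt; with 1 library left out they ranged from -0.07 to 0.11 and from 0.0434 to 0.0797 nt. With each sequence counted 1 time, miR-10a-5p minus miR-10b-5p reversed to 0.00264 nt in length, 3.10 points in mismatched last bases and 1.23 in mismatched last A, and miR-196a-5p minus miR-196b-5p to 0.128 in mismatched last bases; the cause was not tested.

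With 1 library left out, paralog differences could not pass, since 5 libraries give an exact p of at least 0.0625. Across these runs miR-10a minus miR-10b ranged from -9.40 to -8.83 points at the main start, 9.66 to 10.1 at the main end, -0.198 to -0.189 nt in length, -1.91 to -1.45 points in last A and -0.717 to -0.672 in log2 arm ratio. miR-196a minus miR-196b ranged from -0.118 to -0.0982, -12.9 to -11.4, -0.195 to -0.177 nt and, in arm ratio, -2.31 to -2.13. Its difference in mismatched last bases ranged from -0.687 to 0.233, reversed without untreated replicate 1. Later-starting reads ended later by 0.514 to 0.520 nt (miR-10a-5p) and 0.780 to 0.824 nt (miR-10b-5p). Depth limited mir-196b-3p and mir-196c, with 84 and 215 reads.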
